A study of Mus musculus with 6 samples.

Results

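The TAM receptors are 3 related receptor tyrosine kinases, Mertk (ENSMUSG00000014361), Axl (ENSMUSG00000002602) and Tyro3 (ENSMUSG00000027298), and their bridging ligands are Gas6 (ENSMUSG00000031451) and Pros1 (ENSMUSG00000022912). These 5 genes were taken by symbol out of the 33696 genes in the count tables, each with 1 feature, and were followed across immune lineages to show which cells carried receptor and which carried ligand. The cells were mouse mammary tumour cells sorted as live and CD45+, which enriches leukocytes, and were profiled by droplet single-cell RNA sequencing of transcript 3' ends with unique molecular identifiers (UMIs). The series title names triple negative breast cancer, MERTK inhibition and cyclophosphamide. The labels give 1 library for each of MRX, CTX, Combined, ctxd18t and combod18t without spelling out these names, and the protocol places MRX, CTX and Combined in 1 multiplexed run. That protocol describes treatment 3 hours before harvest in day 7 mice, and the d18 in the last 2 labels is read here as day 18. Strain, age, dose and the number of mice behind a library are not given in the sources used here, and the library labelled VC was not analysed here.

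TAM receptors bind apoptotic cells indirectly. Gas6 and protein S, the product of Pros1, hold phosphatidylserine on a dying cell through a vitamin K-dependent, gamma-carboxylated domain and bind the receptor with their other end. Gas6 binds all the receptors, whereas protein S binds Mertk and Tyro3. In macrophages Mertk drives the engulfment of dying cells and Axl is induced by inflammatory signals, and both dampen innate immune responses through suppressors of cytokine signalling. Protein S is best known as a plasma anticoagulant and is also made by activated T cells.

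The promoters of 4 members are shown because in the data below Mertk, Axl and Gas6 were higher in C1q-positive than in monocyte-marker-positive cells while Pros1 was not. They run from 250 bases before to 50 after the RefSeq gene start, 5' to 3' on the gene's strand in build GRCm38.p6, with each GC box (GGGCGG on either strand, overlapping matches joined) in capitals. The windows are chr2:128698665-128698964 on the plus strand for Mertk, chr7:25788684-25788983 on the minus strand for Axl, chr8:13494486-13494785 on the minus strand for Gas6 and chr16:62854057-62854356 on the plus strand for Pros1.
Mertk: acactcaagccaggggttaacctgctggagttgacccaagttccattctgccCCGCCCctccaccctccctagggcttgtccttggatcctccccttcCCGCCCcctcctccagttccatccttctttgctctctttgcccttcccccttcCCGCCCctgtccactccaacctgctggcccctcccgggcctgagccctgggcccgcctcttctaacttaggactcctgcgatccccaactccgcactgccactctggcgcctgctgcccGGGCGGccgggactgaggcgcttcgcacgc
Axl: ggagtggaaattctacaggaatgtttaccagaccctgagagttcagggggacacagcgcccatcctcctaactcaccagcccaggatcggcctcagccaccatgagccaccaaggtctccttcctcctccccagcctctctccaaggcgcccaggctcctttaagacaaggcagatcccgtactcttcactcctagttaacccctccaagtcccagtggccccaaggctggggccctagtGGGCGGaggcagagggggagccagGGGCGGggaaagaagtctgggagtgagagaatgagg
Gas6: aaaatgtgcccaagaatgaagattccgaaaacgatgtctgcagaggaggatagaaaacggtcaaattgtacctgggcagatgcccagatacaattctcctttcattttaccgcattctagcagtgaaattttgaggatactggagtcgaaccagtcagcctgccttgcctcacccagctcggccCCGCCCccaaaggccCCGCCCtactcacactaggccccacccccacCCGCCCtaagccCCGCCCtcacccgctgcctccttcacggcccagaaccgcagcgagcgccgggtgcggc
Pros1: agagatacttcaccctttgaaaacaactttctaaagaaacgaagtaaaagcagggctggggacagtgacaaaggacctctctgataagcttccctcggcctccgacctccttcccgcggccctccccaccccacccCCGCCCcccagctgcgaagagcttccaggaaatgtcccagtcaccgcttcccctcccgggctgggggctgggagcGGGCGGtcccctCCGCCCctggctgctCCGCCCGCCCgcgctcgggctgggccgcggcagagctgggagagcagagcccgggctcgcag

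The GC box had 4 matches in the Mertk window, 2 in that of Axl, 4 in that of Gas6 and 5 in that of Pros1. It was present in 35.7% of all 32851 promoters of the same length. The PU.1-type core GAGGAA, searched on both strands, had 1 match, in the Axl window, and was present in 28.3% of all promoters. The AP-1 letters TGANTCA (7.81% of all promoters) and the MAF-type core TGCTGA (19.5%) had no match in these 4 windows. The GC content was 66.0% for Mertk, 60.3% for Axl, 58.3% for Gas6 and 66.7% for Pros1, against a median of 52.7% over all promoters. These matches describe the letters only, and the windows with and without GAGGAA do not follow the split of the members between macrophages and monocytes.

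Cells were assigned by marker gates on raw counts, none of which used a member. A cell entered a gate when a set number of the lineage's markers had a UMI, for example 6 of 10 for monocyte-macrophage cells and 4 of 8 for T cells. After filtering, 5169 MRX, 8520 CTX, 4285 Combined, 3826 ctxd18t and 3853 combod18t cells remained, with 6239 to 8907 UMIs per cell at the median. Monocyte-macrophage-gated cells numbered 1319 in MRX, 4073 in CTX, 1084 in Combined and, at day 18, 625 in ctxd18t and 205 in combod18t. Ptprc, which encodes CD45, had a UMI in at least 95.8% of T-, NK-, B- and monocyte-macrophage-gated cells of every library, but in at most 25.0% of epithelial-gated cells. Cells passing several gates made up 4.47% to 12.4% of a library and were kept apart. CTX and combod18t shared 34 cell barcodes and Combined and ctxd18t shared 21, while no other pair shared any; leaving these cells out moved none of the comparisons between libraries in the monocyte-macrophage gate beyond its counting interval. Each group is 1 library, so no test between groups was possible. Intervals are exact 95% intervals that cover counting error only, and animals and handling add spread that was not measured.

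Mertk was carried by monocyte-macrophage cells. Its level in that gate, as CPM (the gene's UMIs scaled to 1e6 UMIs of the gated cells), was 34.9 in MRX (31.6 to 38.5), 19.2 in CTX (18 to 20.6), 16.8 in Combined (14.7 to 19.3) and, at day 18, 27.0 in ctxd18t (23.6 to 30.7) and 38.0 in combod18t (30.9 to 46.3). On all cells MRX and combod18t were the high libraries, with overlapping intervals, and CTX and Combined the low ones, also overlapping. In combod18t 5 cells held 34.3% of the gate's Mertk UMIs, against 6.52% in MRX. Without the 5 cells of most Mertk UMIs MRX was at 32.8 CPM, ctxd18t at 23.2 and combod18t at 25.7. The place of combod18t beside MRX thus rested on 5 cells, while CTX (18.3) and Combined (14.2) stayed lowest. The gate held between 95.5% and 100% of the Mertk UMIs of cells in 1 gate, with a median of 98.6% over the 5 libraries. Cells of several gates are outside these shares. In combod18t they held 157 of the library's 259 Mertk UMIs and the monocyte-macrophage gate 99. In ctxd18t they held 201 of 443 and that gate 231. A Mertk UMI was present in 12.5% to 22.0% of monocyte-macrophage-gated cells, against at most 0.203% of T-gated and 0.350% of B-gated cells. The 5 endothelial-gated cells of ctxd18t carried 6 Mertk UMIs, and 94 epithelial-gated cells carried 3. Among 1099 neutrophil-gated cells none had a Mertk UMI, and the limit of 3 counts puts at most 0.273% of them with a UMI. That limits cells with a UMI, not cells expressing Mertk, since neutrophil-gated cells had medians of only 2585 to 4126 UMIs. With every cell thinned to 1000 UMIs the monocyte-macrophage share was 0.831% to 3.8%, and none of 2494 B-gated cells had a Mertk UMI at that depth.

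Axl was seen in macrophages, in cDC2, in a minority of T cells and in a few migratory dendritic and fibroblast-gated cells. In the monocyte-macrophage gate it was at 76.0 CPM in MRX (71.0 to 81.2), 80.9 in CTX (78.3 to 83.5), 69.0 in Combined (64.5 to 73.7) and, at day 18, 60.5 in ctxd18t (55.4 to 65.9) and 79.1 in combod18t (68.6 to 90.6). The libraries lay close together, with ctxd18t lowest. That gate held 65.4% to 96.1% of the Axl UMIs in cells of exactly 1 gate, the lowest share being in combod18t, where T-gated cells held 30.8%. In combod18t 407 of the library's 731 Axl UMIs were in cells of several gates, against 206 in the monocyte-macrophage gate and 97 in T-gated cells. Type 2 conventional dendritic cells (cDC2) were at 55.7 CPM in MRX, 19.6 in CTX, 33.1 in Combined and 32.7 in ctxd18t, from 23 to 86 cells a library, and had no Axl count in the 3 cDC2-gated cells of combod18t. Migratory dendritic cells carried 18 Axl UMIs, in 5 of 61 cells, and none in the 21 such cells of CTX. The 17 fibroblast-gated cells carried 32 Axl UMIs, at 121.4 to 746.8 CPM in 4 libraries, the upper value being 1 UMI in 1 cell. Plasmacytoid dendritic cells (pDCs) carried 3 in 635 cells. No Axl UMI was seen in 55 cDC1-gated cells.

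In T-gated cells Axl was at 5.37 CPM in MRX, 7.50 in CTX, 8.84 in Combined and, at day 18, 8.12 in ctxd18t and 4.63 in combod18t. This was 5.85% to 13.4% of the monocyte-macrophage level of the same library. The summed monocyte-macrophage markers of T-gated cells reached 0.947% to 2.55% of their level in the monocyte-macrophage gate, the C1q genes reached 0.468% to 5.40% and Mertk 0% to 1.59%. Axl in T-gated cells was therefore a larger part of the macrophage level than Mertk or the summed markers in every library. In NK- and B-gated cells Axl stayed at or below 2.68% of the macrophage level, with 13 UMIs in 1502 NK-gated cells and 6 in 2502 B-gated cells.

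Tyro3 was seen at a low level in NK- and T-gated cells and in epithelial-gated cells, and hardly at all in myeloid cells. NK-gated cells had 2.94 CPM in MRX (11 UMIs), 4.34 in CTX (14), 2.53 in Combined (14) and, at day 18, 5.45 in ctxd18t (3) and 3.07 in combod18t (2). T-gated cells had 1.95 CPM in MRX, 1.56 in CTX, 1.47 in Combined and, at day 18, 1.92 in ctxd18t and 0.763 in combod18t, from 11 to 22 UMIs a library. NK cells were above T cells in all 5 libraries by log2 ratios (of CPM + 1, as throughout) of 0.42 to 1.21, but the counting interval excluded 0 in CTX alone (1.06, 0.39 to 2.52). Monocyte-macrophage-gated cells had 5 Tyro3 UMIs in 7306 cells, neutrophil-gated cells and pDCs none, and B-gated cells 1. Epithelial-gated cells carried 14 Tyro3 UMIs in 94 cells, at up to 9.70 CPM in ctxd18t.

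Gas6 was carried by macrophages and by the few epithelial and fibroblast cells among the sorted cells, and in ctxd18t alone by endothelial-gated cells. Monocyte-macrophage-gated cells were at 9.10 CPM in MRX (7.43 to 11), 5.80 in CTX (5.12 to 6.54), 1.58 in Combined (0.966 to 2.44) and, at day 18, 21.8 in ctxd18t (18.8 to 25.2) and 5.37 in combod18t (2.94 to 9.01). On all cells the ctxd18t library was highest and Combined lowest, and neither interval overlapped another library's. Without the 5 cells of most Gas6 UMIs ctxd18t was still highest at 15.6 CPM. Combined was then at 1.03 and combod18t at 0.786, so that Combined was no longer the lowest. Epithelial-gated cells reached 198.0 CPM in MRX, 47.8 in CTX, 137.3 in Combined and, at day 18, 148.0 in ctxd18t and 59.5 in combod18t, although they numbered only 3 to 44 a library. The 17 fibroblast-gated cells of 4 libraries carried 155 Gas6 UMIs, and in ctxd18t 5 endothelial-gated cells carried 106. Of the Gas6 UMIs in cells of exactly 1 gate, the monocyte-macrophage gate held 75.4% in CTX, 59.8% in MRX, 38.6% in ctxd18t, 31.1% in combod18t and 21.3% in Combined. Cells of several gates are outside these shares: in combod18t they held 174 of the library's 236 Gas6 UMIs and the monocyte-macrophage gate 14, and in ctxd18t 189 and 187 of 694. The number of epithelial-, fibroblast- and endothelial-gated cells differed between libraries beside these shares, and its part in them was not tested. T-gated cells carried 46 Gas6 UMIs in 8311 cells, which was 0.80% of the macrophage level in ctxd18t, 5.33% in combod18t, 15.4% in CTX, 21.5% in MRX and 50.8% in Combined (6 and 20 UMIs), and B-gated cells 3 in 2502.

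Pros1 was carried by macrophages, pDCs, cDC2, T cells and a few cDC1-, epithelial-, fibroblast- and endothelial-gated cells. In the monocyte-macrophage gate it was at 30.7 CPM in MRX (27.6 to 34.1), 19.5 in CTX (18.2 to 20.8), 16.8 in Combined (14.6 to 19.2) and, at day 18, 50.2 in ctxd18t (45.6 to 55.2) and 58.3 in combod18t (49.4 to 68.4). Both day 18 libraries were above the other 3, without overlap of the intervals; the multiplexing map in the protocol does not name them, so day and run cannot be told apart. The pDCs carried Pros1 with hardly any receptor (3 Axl UMIs and 1 Mertk UMI in 635 cells), at 13.3 CPM in MRX, 26.1 in CTX, 25.8 in Combined and, at day 18, 32.4 in ctxd18t and 18.2 in combod18t. The cDC2 levels ran from 17.9 to 32.7 CPM. The 55 cDC1-gated cells carried 9 Pros1 UMIs in 6 cells, at up to 30.2 CPM. The 94 epithelial-gated cells carried 23 in 14 cells, at up to 24.3 CPM. Fibroblast-gated cells carried 66 Pros1 UMIs in 17 cells, at up to 349.1 CPM in ctxd18t. In that library 5 endothelial-gated cells held 9.41% of the Pros1 UMIs in cells of exactly 1 gate, fibroblast-gated cells 6.76% and pDCs 3.68%. Migratory dendritic cells had no Pros1 UMI in 61 cells, although they carried Axl. T-gated cells had 4.98 CPM in MRX, 2.45 in CTX, 6.30 in Combined and, at day 18, 6.37 in ctxd18t and 9.97 in combod18t. This was 12.6% to 37.6% of the macrophage level of the same library, against 0.870% to 3.62% in NK-gated cells and 0% to 2.14% in B-gated cells. In combod18t, where T cells were 65.5% of all cells, they held 52.6% of the 397 Pros1 UMIs in cells of exactly 1 gate and the monocyte-macrophage gate 38.3%. These were 209 and 152 of the library's 586 Pros1 UMIs, of which 177 were in cells of several gates.

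**Figure D1:**
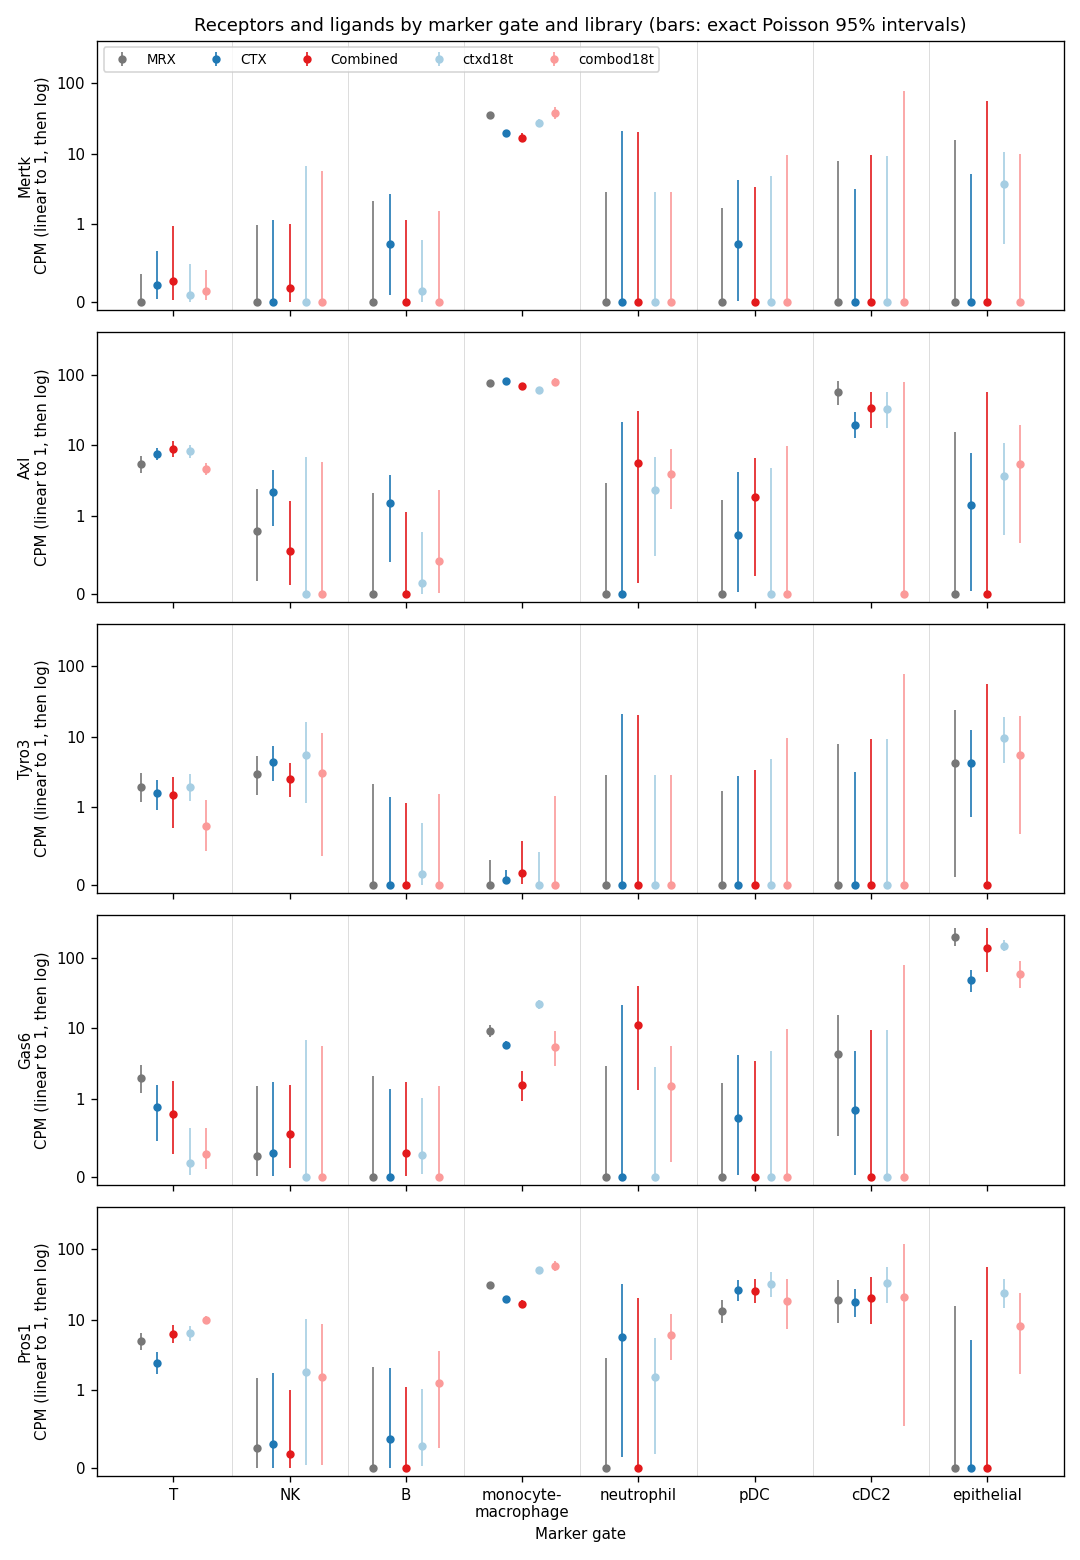
Level of each gene in CPM (axis linear up to 1 and logarithmic above) by marker gate, 1 point per library with its exact Poisson 95% interval. Mertk stands above the rest only in the monocyte-macrophage gate (16.8 to 38.0 CPM), Axl and Pros1 are spread over myeloid cells and T cells, Tyro3 is seen in T, NK and epithelial gates, and Gas6 is highest in epithelial-gated cells among the gates shown.

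**Figure D2:**
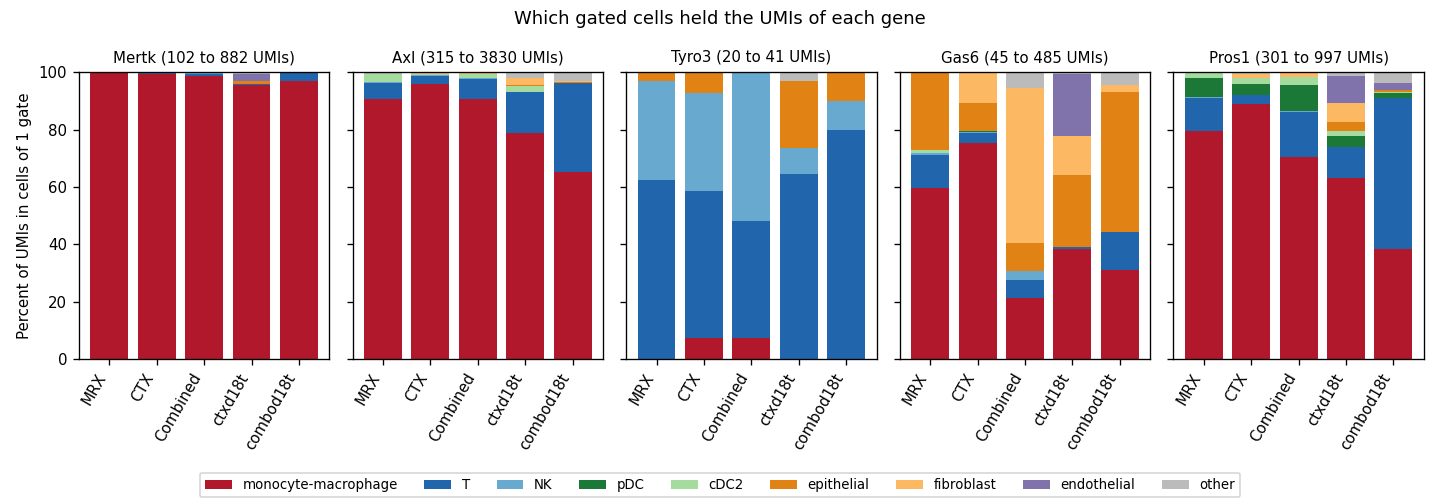
Percent of each gene's UMIs, among cells of exactly 1 gate, held by each gate in each library; the title of each panel gives the range of UMIs behind a bar. Mertk is nearly all in monocyte-macrophage cells (95.5% to 100%), whereas their part of Gas6 runs from 21.3% to 75.4%. Cells of several gates, which held 60.6% of the Mertk UMIs of combod18t, are outside these shares.

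Cells passing both the T and the monocyte-macrophage gate were left out of the levels above, and they carried receptor too. They numbered 45 in MRX, 427 in CTX, 122 in Combined and, at day 18, 152 in ctxd18t and 117 in combod18t, with a median of 11540 to 23281 UMIs. Their Mertk level was 20.8 to 29.1 CPM and their Axl level 57.9 to 80.3 CPM. All cells of several gates together held from 6.94% (MRX) to 60.6% (combod18t) of a library's Mertk UMIs and from 24.8% (Combined) to 73.7% (combod18t) of its Gas6 UMIs. Whether these barcodes are doublets was not tested.

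Within the monocyte-macrophage gate Mertk, Axl and Gas6 were higher in cells with C1q complement genes only than in cells with monocyte markers only, whereas Pros1 was not. Tyro3, with 5 UMIs in the gate, gave no comparison. The gate was split by C1qa, C1qb and C1qc (at least 2 of 3 with a UMI) and by 6 monocyte markers (at least 4 with a UMI, among them Ly6c2, Vcan and Ccr2). C1q-only cells made up 31.8% of the gate in MRX, 26.5% in CTX, 17.6% in Combined and, at day 18, 30.4% in ctxd18t and 46.3% in combod18t, and monocyte-only cells 36.3%, 29.6%, 47.4%, 38.9% and 35.1% of it in the same order. In C1q-only cells Mertk was at 53.1 CPM in MRX, 27.5 in CTX, 26.6 in Combined and, at day 18, 44.0 in ctxd18t and 73.3 in combod18t. In monocyte-only cells of the same libraries it was at 21.0, 13.4, 12, 13 and 6.06 CPM. C1q-only cells were higher in 5 of 5 libraries, by a median log2 ratio of 1.30 (0.99 to 3.40 over the libraries), and each library's counting interval excluded 0.

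Axl had the same order in 5 of 5 libraries, with a median log2 ratio of 1.93 (1.06 to 3.57). Its C1q-only levels were 107.5 to 142.8 CPM, and its monocyte-only levels 11.1 CPM in combod18t, 19.0 in ctxd18t, 31.4 in MRX, 45.2 in Combined and 53.7 in CTX. The C1q-only levels thus varied less between libraries than the monocyte-only levels. Gas6 was higher in C1q-only cells of 5 of 5 libraries by a median of 2.38 (0.95 to 4.21), with a counting interval above 0 in 4. The exception was Combined, where both subsets had 6 UMIs. In ctxd18t Gas6 was at 56.5 CPM in C1q-only cells from 136 UMIs and at 2.11 in monocyte-only cells from 7. Pros1 was lower in C1q-only cells of 5 of 5 libraries, by a median of -0.34 (-0.55 to -0.08), with an interval below 0 in 2. Gas6 in cells positive for both sets was above the C1q-only level in CTX (11.7 against 6.84 CPM). Cells positive for neither set, 7.32% to 24.2% of the gate, lacked the C1q criterion but carried Axl at 70.3 CPM in MRX, 79.9 in CTX, 72.7 in Combined and, at day 18, 64.7 in ctxd18t and 102.1 in combod18t (17 UMIs). These levels were above those of monocyte-only cells in all 5 libraries and near those of cells positive for both sets (66.9 to 94.2 CPM). Mertk in cells of neither set was at 14.2 to 24.8 CPM. Cells positive for both marker sets lay between the C1q-only and monocyte-only levels of Mertk and Axl in every library.

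**Figure D3:**
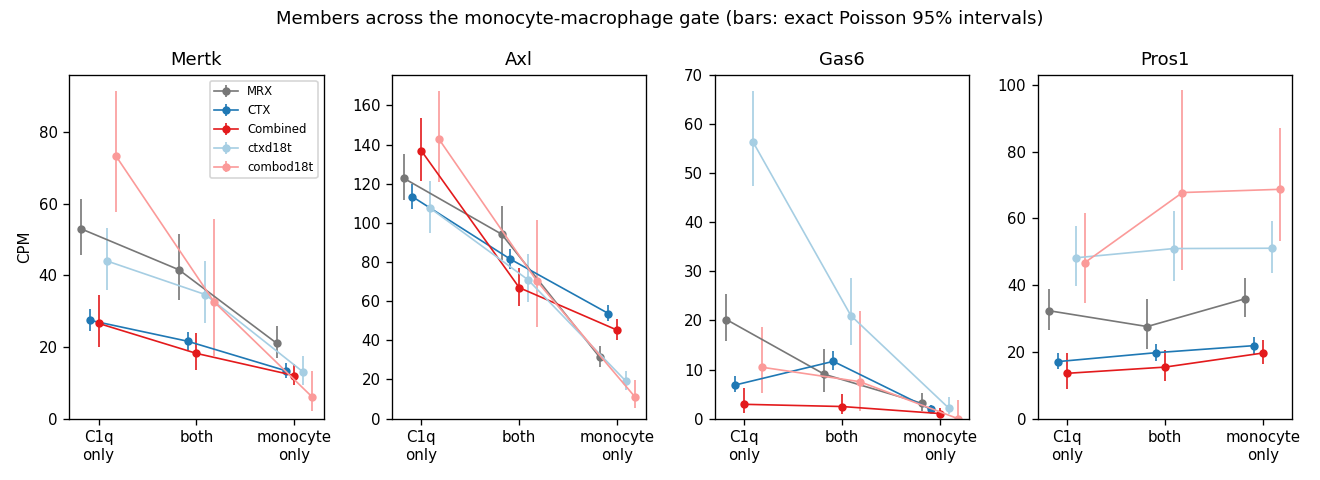
CPM of 4 members in cells of the monocyte-macrophage gate positive for C1q markers only, for both marker sets or for monocyte markers only; 1 line per library, bars are exact Poisson 95% intervals. Mertk and Axl are lower in monocyte-only than in C1q-only cells in all 5 libraries, and Pros1 is not.

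Receptor and ligand transcripts were found in the same gate, and in part in the same cells. Between 46.0% and 52.7% of monocyte-macrophage-gated cells had a UMI of Mertk or Axl. Of these, 23.4% in MRX, 22.0% in CTX, 16.4% in Combined and, at day 18, 47.3% in ctxd18t and 45.6% in combod18t also had a UMI of Gas6 or Pros1. Among cells with neither receptor UMI the ligand shares were 24.0%, 18.6%, 18.8%, 38.7% and 40.2% in the same order. Receptor-positive cells had the higher share in CTX, ctxd18t and combod18t and the lower one in MRX and Combined. The intervals of these shares overlapped in all 5 libraries, which does not show that the shares were equal. For Gas6 alone they did not overlap in ctxd18t, where 15.8% of receptor-positive cells (11.8 to 20.4) and 4.80% of the others (2.77 to 7.69) had a Gas6 UMI. For Mertk against Gas6 they did not overlap in ctxd18t (24.4%, 17.0 to 33.1, against 6.52%, 4.53 to 9.04) or in CTX (7.24%, 5.27 to 9.66, against 2.81%, 2.28 to 3.41). The Mertk-positive cells were deeper, at medians of 14251 and 12282 UMIs in ctxd18t and 11976 and 9383 in CTX. After thinning 1 of 11 Mertk-positive cells in ctxd18t and 2 of 73 in CTX had a Gas6 UMI, with intervals that overlapped those of the others.

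Cells with a Mertk UMI more often showed an Axl UMI, but they were also deeper. The Axl share was 53.7% of Mertk-positive against 32.5% of Mertk-negative cells in MRX, 61.4% against 44.8% in CTX, 55.9% against 38.3% in Combined, 48.7% against 34.2% in ctxd18t and 60% against 36.3% in combod18t. Median depths were 8772 and 8052 UMIs in MRX and 11976 and 9383 in CTX. With all cells thinned to 1000 UMIs, 9 of 50 Mertk-positive cells in MRX had an Axl UMI (18%, 8.58 to 31.4) against 7.35% of the others (5.97 to 8.92). In CTX 5 of 73 did (6.85%, 2.26 to 15.3) against 8.11%, and the other libraries had 11 or fewer Mertk-positive cells after thinning. At this depth a difference in co-detection beyond depth was not detectable outside MRX, and the MRX intervals overlapped slightly.

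Between libraries, Gas6 had the largest log2 ratio of the members in monocyte-macrophage cells when Combined was set against CTX and combod18t against ctxd18t, on all UMIs. Thinned to 1000 UMIs, the day 18 values were -0.80 for Gas6 (2 and 11 UMIs), -1.21 for Pros1 and 0.98 for Mertk, all with intervals that included 0, so that the order of the members at day 18 did not hold at that depth. Gas6 was lower in Combined than in CTX by a log2 ratio of -1.40 on the CPM + 1 scale (the interval of the plain ratio was -2.61 to -1.22, from 20 and 264 UMIs). It was lower in combod18t than in ctxd18t by -1.84 (-2.92 to -1.24, from 14 and 187 UMIs). Among genes of at least 5 CPM in either library of the pair, 0.554% of 8839 passed a log2 ratio of 1 in size in the former comparison and 2.90% of 9399 in the latter. Gas6 was the only one of the 4 members at that level that passed in either.

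Mertk differed by -0.18 in Combined against CTX (-0.42 to 0.02) and by 0.48 in combod18t against ctxd18t (0.14 to 0.84). Axl differed by -0.23 (-0.34 to -0.12) and 0.38 (0.15 to 0.62), and Pros1 by -0.20 (-0.44 to 0.00) and 0.21 (-0.06 to 0.49). The first pair had 5th and 95th percentiles over all such genes of -0.41 and 0.40 and the second of -0.56 and 0.66, so that these values lay inside the range of most genes. Pros1 in combod18t against ctxd18t was at -0.23 with Leiden clusters, so its direction was not settled.

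The Gas6 differences rested on few cells. In the gate, 18 of 1084 Combined cells had a Gas6 UMI (1.66%, 0.987 to 2.61) against 140 of 4073 CTX cells (3.44%, 2.90 to 4.04), and 7 of 205 combod18t cells (3.41%, 1.38 to 6.91) against 62 of 625 ctxd18t cells (9.92%, 7.69 to 12.5). The 5 cells with the most Gas6 UMIs held 26.1% of the gate's count in CTX, 35.0% in Combined and, at day 18, 29.9% in ctxd18t and 85.7% in combod18t. Without those cells the log2 ratios were -1.38 for Combined against CTX and -3.21 for combod18t against ctxd18t, where 2 UMIs were left in combod18t. With Leiden clusters in place of gates Combined against CTX was at -0.51, and with cells of several gates kept combod18t against ctxd18t was at -0.65, both short of 1 in size. With a pseudocount of 10 CPM Combined against CTX was at -0.45. Within C1q-only cells Gas6 was lower in Combined than in CTX by -1.01 (-2.73 to -0.05, from 6 and 75 UMIs) and in combod18t than in ctxd18t by -2.32 (-3.47 to -1.55, from 11 and 136 UMIs).

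Markers of other cell types were counted in the gate beside the Gas6 differences. Fibroblast markers summed to 0.768 to 3.15 CPM over the libraries, with 2 to 6 of 6 detected. Among Gas6-positive cells 4 of 6 were detected in MRX, at 10.4 CPM in sum against 2.70 CPM in Gas6-negative cells, while 0 of 6 were detected in Combined and in combod18t and 1 of 6, Col3a1, in CTX and ctxd18t. The epithelial markers summed to 3.87 to 12.7 CPM with 4 to 7 of 7 detected, and in ctxd18t to 23.3 CPM in Gas6-positive against 3.09 CPM in Gas6-negative cells. Endothelial markers summed to 46.7 to 119.9 CPM with 4 to 6 of 6 detected, highest in ctxd18t, and were similar in Gas6-positive (129.2 CPM) and Gas6-negative cells (118.5 CPM) there. Over the whole gate Cldn5 and Emcn had no UMI in Combined and combod18t. In the 7 Gas6-positive cells of combod18t the whole endothelial sum of 98.4 CPM (8 UMIs) came from 1 marker, Pecam1. Neutrophil markers summed to 379.3 CPM in ctxd18t and 622.1 CPM in combod18t, and in ctxd18t to 130.1 CPM in Gas6-positive against 416.6 CPM in Gas6-negative cells. In CTX the order was the opposite, at 258.3 against 136.8 CPM. T markers summed to 8.75 to 23.0 CPM, with all 8 detected in each library, and were at 15.1 CPM in ctxd18t and 23.0 in combod18t. Lum, a fibroblast marker, was at 0 in all libraries but CTX. These sums count marker UMIs and not cells of another type, and the part of such cells in the Gas6 differences was not tested.

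Against MRX, both CTX and Combined were lower in Mertk, Gas6 and Pros1. Mertk was lower by -0.83 in CTX (-1.03 to -0.68) and -1.01 in Combined (-1.30 to -0.81). Gas6 was lower by -0.57 (-0.98 to -0.31) and -1.97 (-3.29 to -1.82), and Pros1 by -0.63 (-0.84 to -0.47) and -0.84 (-1.13 to -0.62). Axl differed by 0.09 (-0.02 to 0.20) and -0.14 (-0.28 to -0.00). A log2 ratio of 1 in size was passed by 3.15% of 8922 genes in CTX against MRX, where no member passed, and by 5.84% of 8976 genes in Combined against MRX, where Mertk and Gas6 passed. Neither passed with a pseudocount of 10 CPM (-0.74 and -0.72). The 2 comparisons share the MRX library.

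The Mertk difference from MRX was present in C1q-only and monocyte-only cells and in cells of both sets (-0.91 in CTX and -1.15 in Combined). In cells of neither set it was -0.76 in CTX (-1.31 to -0.26), while Combined was at -0.35 with an interval that included 0 (-1.05 to 0.32). In C1q-only cells it was -0.93 in CTX (-1.22 to -0.68) and -0.97 in Combined (-1.46 to -0.55), and in monocyte-only cells -0.61 (-1.03 to -0.27) and -0.76 (-1.28 to -0.34). Axl split: its C1q-only ratios were -0.12 (-0.28 to 0.05) and 0.15 (-0.07 to 0.38), while monocyte-only cells were higher than in MRX by 0.75 in CTX (0.50 to 1.05) and 0.51 in Combined (0.22 to 0.84). In cells of both sets Axl was at -0.21 in CTX (-0.44 to 0.02) and -0.49 in Combined (-0.79 to -0.20). In cells of neither set it was at 0.18 (-0.10 to 0.47) and 0.05 (-0.32 to 0.42). At day 18 Mertk was higher in combod18t than in ctxd18t in C1q-only cells (0.72, 0.29 to 1.17) and at -0.99 in monocyte-only cells, where the interval was -2.62 to 0.14. Leaving out the 5 cells with the most Mertk UMIs brought the day 18 difference of the whole gate to 0.14 (-0.28 to 0.56). Thinning to 1000 UMIs moved Mertk in Combined against CTX from -0.18 to -1.15, on 9 and 80 UMIs.

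**Figure D4:**
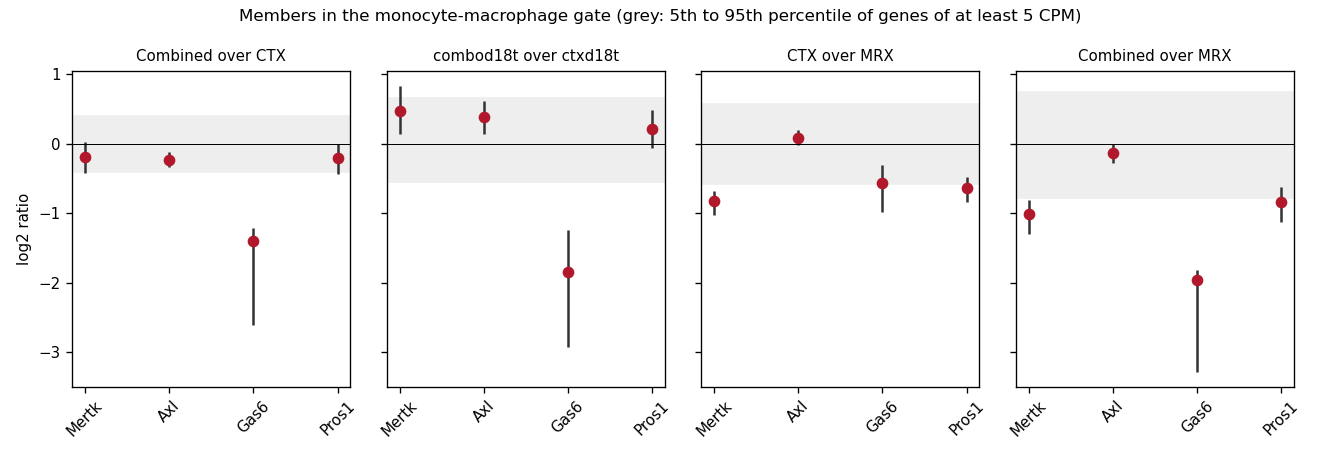
log2 ratio of CPM + 1 (points) of 4 members in monocyte-macrophage-gated cells in 4 comparisons of libraries, with the exact interval of the plain ratio as a line; the grey band is the 5th to 95th percentile over genes of at least 5 CPM. Gas6 lies below the band in 3 of the 4 comparisons, and Mertk and Pros1 lie below it in both comparisons with MRX.

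In T cells Axl and Pros1 were not evenly spread. T-gated cells were split by a single UMI of Foxp3 (the regulatory T cell factor), Cd4, Cd8a or Trdc (a gamma-delta receptor constant chain), a division chosen after these values were seen. Cells with a Foxp3 UMI had 18.5 CPM of Axl in MRX (17 UMIs), 10.8 in CTX (28), 15.7 in Combined (27) and, at day 18, 16.7 in ctxd18t (31) and 15.6 in combod18t (45). T-gated cells without one had 4.07, 6.71, 6.79, 6.46 and 2.87 CPM in the same order. The log2 ratios were 1.95 (1.27 to 3.05), 0.62 (0.01 to 1.34), 1.10 (0.45 to 1.95), 1.25 (0.70 to 2.02) and 2.10 (1.84 to 3.05). Against Cd4-positive cells without Foxp3, CTX (0.04, -0.70 to 0.77) and Combined (0.81, -0.03 to 1.83) had intervals that included 0. Summed monocyte-macrophage markers were 233.2 to 472.8 CPM in the Foxp3 cells and 127.9 to 332.0 CPM in the rest. Among cells with at most 1 of the 10 markers detected, the Foxp3 cells were higher by 2.0, 0.89, 1.39, 1.57 and 2.27, with an interval including 0 in CTX (-0.07 to 2.01).

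Pros1 shared the Foxp3 pattern only in part. Cells with a Foxp3 UMI were above T-gated cells without one by 1.14 in MRX (0.15 to 2.33) and 0.57 in combod18t (0.09 to 1.12). The other libraries were at 0.80 (CTX), 0.69 (Combined) and -0.24 (ctxd18t), with intervals that included 0. Among cells with at most 1 monocyte-macrophage marker the calls shifted: Foxp3 cells were above the others in CTX (1.47, 0.45 to 3.15) and combod18t (0.84, 0.33 to 1.44), while MRX (1.12, -0.14 to 2.47), Combined (0.48, -1.23 to 2.04) and ctxd18t (0.28, -0.89 to 1.34) had intervals that included 0. Against Cd4-positive cells without Foxp3 the interval was above 0 in combod18t alone (0.64, 0.12 to 1.26). Among the 4 subsets it was lowest in Cd8a-positive cells in all 5 libraries, at 1.07 to 7.73 CPM. Cd4-positive cells without Foxp3 ran from 3.07 to 12.2 CPM. Trdc-positive cells of combod18t had 23.6 CPM (15.4 to 34.5, 26 UMIs in 124 cells), a log2 ratio of 1.26 over T-gated cells without Foxp3 (0.69 to 1.94). The other libraries had 1 to 6 Pros1 UMIs in such cells, with intervals that included 0. Between libraries, Pros1 in T-gated cells was higher in Combined than in CTX by 1.08 (0.69 to 2.05, from 47 and 33 UMIs), where 0.809% of 9516 genes of at least 5 CPM passed a log2 ratio of 1 in size. Against MRX, CTX was lower (-0.79, -1.70 to -0.36) and the Combined interval included 0 (0.29, -0.26 to 0.94), so that CTX was the low library of the 3. In combod18t against ctxd18t Pros1 was at 0.57 (0.25 to 1.05) and Axl at -0.70 (-1.24 to -0.39), where 5.10% of 9718 genes passed and neither member did.

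**Figure D5:**
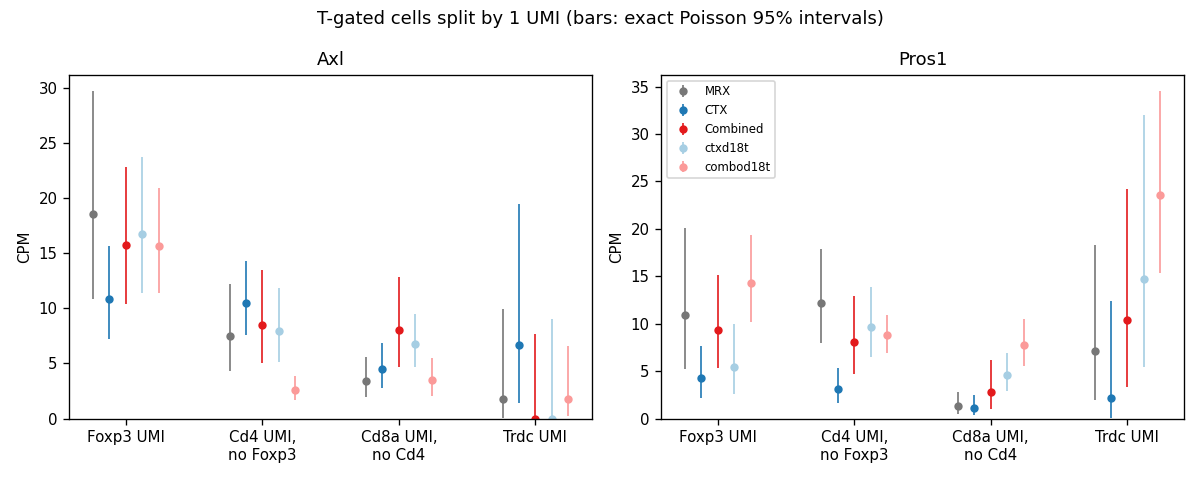
CPM of Axl and Pros1 in T-gated cells with a UMI of Foxp3, of Cd4 without Foxp3, of Cd8a without Cd4, or of Trdc; 1 point per library, bars are exact Poisson 95% intervals. Axl is at 10.8 to 18.5 CPM in Foxp3 cells, and Pros1 reaches 23.6 CPM in the Trdc cells of combod18t.

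Most other genes of the pathway differed little in monocyte-macrophage cells. In Combined against CTX, none of the 24 genes of 6 lists that reached 50 CPM passed a log2 ratio of 1 in size, against 0.367% of 3545 genes overall. In combod18t against ctxd18t 2 of 28 passed, against 1.30% of 3929 genes. Both were lower in combod18t. Pparg, a lipid-sensing nuclear receptor linked to Mertk transcription, was at 11.9 CPM in combod18t and 53.5 in ctxd18t (-2.08, -2.74 to -1.64). Socs1, a suppressor of cytokine signalling that acts downstream of TAM receptors, was at 23.4 and 71.8 CPM (-1.58, -2.02 to -1.24). In Combined against CTX these 2 genes were at -1.09 (Pparg, 7.83 and 17.8 CPM, below the 50 CPM filter) and 0.86 (Socs1, 142.9 and 78 CPM).

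The sheddases that cut Mertk and Axl from the surface were expressed in every library. Adam17 was at 205.0 CPM in MRX, 209.5 in CTX, 236.2 in Combined and, at day 18, 221.5 in ctxd18t and 294.3 in combod18t, and Adam10 ran from 122.6 to 221.8 CPM. Of 4 genes of the ligands' gamma-carboxylation system, Calu, which encodes its inhibitor calumenin, ran from 37.7 to 57.2 CPM and Vkorc1, which recycles vitamin K, from 31.3 to 38.8 CPM. Of 13 other genes of apoptotic-cell recognition, the most abundant were Lgals3 at 873.6 to 1265 CPM and Lrp1, a receptor that works with calreticulin, at 195.7 to 422.4 CPM. Lrp1 was lower in Combined than in CTX by -0.60 and in combod18t than in ctxd18t by -0.34. Genes of phosphatidylserine exposure included the scramblase Ano6 at 103.6 to 141.2 CPM and the flippase subunit Tmem30a at 79.7 to 132.6 CPM. The median log2 ratio of the apoptotic-cell list was -0.13 and -0.34 in the 2 pairs, over the 7 and 8 of its 13 genes at 50 CPM. That of the phosphatidylserine list was 0.25 and 0.23, over 2 and 3 of its 7 genes. The medians over all genes of at least 50 CPM were 0.07 and 0.03.

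Genes with profiles most like each member's were taken over 25 sums (T, NK, B, monocyte-macrophage and neutrophil gates in 5 libraries) among 13650 genes. For Mertk they were Gm13067, Ocstamp, Ptpro, Gdf3 and Gsg1 (Pearson r of 0.991 to 0.985), and for Axl Cd109, Lsr, Phldb1, Gm41414 and Cln8 (0.937 to 0.918). Those of Tyro3 were Adgrb2, Cldnd2, Wdr95, Tshz3 and Eomes (0.991 to 0.979), of which Eomes is an NK gate marker. For Gas6 they were Peak1os, Cav2, Zmynd15, C6 and Fads3 (0.894 to 0.863), and for Pros1 Tnip3, Cd109, Mtmr10, Vcam1 and Pparg (0.937 to 0.910). The sums of 1 library share its depth and the sums of 1 gate share its markers, so that these values rank genes and carry no test.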

How the data were processed

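Sorted CD45+ mouse tumour cells were profiled in 5 libraries with 1 library per group, so differences carry no test. The authors' deposited values are UMI counts per gene and cell, made with Cell Ranger 9.0.1 per the file headers; GRCm39 is named in the submitters' processing notes. Cells of at least 200 genes and at most 15% mitochondrial counts were kept. Scrublet's own threshold marked at most 0.112% of cells, which was taken as a failure, and the 5% of cells with the highest score were removed from each library. Marker gates were applied to raw counts, with thresholds chosen after seeing the data. Counts were summed per gate and library (total UMIs 39820290 to 100733879) and given as CPM with exact Poisson intervals. Shares have Clopper-Pearson intervals, and log2 ratios of CPM + 1 have the exact conditional interval of the plain ratio. A difference of at least 1 in log2 ratio was called. Intervals cover counting error only. The members and lists were chosen with earlier results of these data known; named genes were the 5 members, the listed pathway genes and the 5 genes most like each member. The formulas of the log2 ratio and its interval were tested on simulated counts with known folds, and the other steps were not. Python 3.11.15, numpy 2.4.6, scipy 1.17.1, pandas 2.3.3 and Scanpy 1.11.5 were used.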

Additional observations from a re-analysis of the deposited data

Results flagged for a closer look

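Axl in monocyte-macrophage-gated cells was lower in Combined than in CTX, by a log2 ratio of -0.23, and higher in combod18t than in ctxd18t, by 0.38. The libraries of the pairs thus moved in opposite directions, with 1 library each, and the difference between the pairs was not tested. In C1q-only cells the ratios were 0.27 (0.08 to 0.46) and 0.41 (0.11 to 0.71), both above 0, and in monocyte-only cells -0.24 (-0.46 to -0.04) and -0.73 (-1.85 to 0.16), both below 0. In cells of both marker sets they were -0.28 (-0.51 to -0.06) and -0.01 (-0.66 to 0.58), and in cells of neither set -0.13 (-0.41 to 0.14) and 0.65 (-0.21 to 1.45), so that the signs did not line up over the whole gate.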

How the results depend on the processing

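The levels, shares held, C1q split and log2 ratios between libraries in the monocyte-macrophage gate were recomputed under other gates, filters and scalings, as were the levels of Axl, Pros1 and Tyro3 in T-gated cells and of Tyro3 in NK-gated cells. The T-gate ratios, T subsets, NK against T ratios of Tyro3, co-detection shares and comparisons within C1q subsets were not. The C1q split stayed within its error in 44 of 44 recomputed values, 4 for each setting, and 179 of 208 log2 ratios between libraries did. The single libraries of the split were not each recomputed. Their log2 ratios ran widely, from 0.99 to 3.40 for Mertk and from 0.95 to 4.21 for Gas6, so that the count of 44 is a weak check. Of 400 levels 53 moved, 25 of them with thinning and 13 with Leiden clusters, and 3 of 24 list counts moved without a filter on low values. Pros1 changed sign in combod18t against ctxd18t (0.21 as reported) under 3 alternatives below and, when thinned, in Combined against CTX (-0.20 as reported). With 1 marker fewer for a gate the median share of Gas6 UMIs held by the monocyte-macrophage gate was 62.6%, and with 1 more 44.1%. With cells of several gates kept, Gas6 was at -1.17 in Combined against CTX, -0.65 in combod18t against ctxd18t and -1.64 in Combined against MRX, Pros1 at -0.065 in combod18t against ctxd18t, and the Gas6 share at 45.8%. With Leiden clusters in place of gates, Gas6 was at -0.51, -1.23 and -1.12 in those comparisons, Pros1 at -0.23 in combod18t against ctxd18t and Mertk at -0.66 in CTX against MRX, with shares held of 94.9% for Mertk, 86.1% for Axl, 71.1% for Gas6 and 80.5% for Pros1. Thinned to 1000 UMIs, Mertk was at -1.15 in Combined against CTX, 0.98 in combod18t against ctxd18t and -2.12 in Combined against MRX, Axl at -0.58 in Combined against CTX and -0.52 against MRX, Pros1 at 0.35, -1.21, -0.85 (CTX against MRX) and -0.50 (Combined against MRX), and Gas6 at -0.80 in combod18t against ctxd18t, with shares held of 100% for Mertk, 87.5% for Axl and 62.5% for Gas6. With a pseudocount of 10 CPM, Gas6 was at -0.45, -1.05, -0.27 (CTX against MRX) and -0.72 (Combined against MRX), Mertk at -0.62 and -0.74 against MRX, and Pros1 at -0.47 and -0.61 against MRX. Without the 5 cells of most UMIs, an alternative chosen after seeing the data, Mertk was at 0.14 and Gas6 at -3.21 in combod18t against ctxd18t. The cause of these shifts was not tested. No paired analysis was possible because each group is 1 library. The values of Tyro3 everywhere and of Gas6 in Combined and combod18t rest on few UMIs.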
